A study of Mus musculus with 8 samples.

Results

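The chemokine family of inguinal white adipose tissue (ING WAT) was examined in C57BL/6j mice at postnatal day 21 (PN21), around weaning, and at postnatal day 98 (PN98), in young adulthood. Genes were taken as members when their symbol in the deposited table began with *Ccl*, *Cxcl*, *Ccr* or *Cxcr* and a digit or was *Cx3cl1* or *Xcl1*, leaving out *Ccl19*, *Ccl21a*, *Cxcl13*, *Ccr2*, *Ccr7* and *Cxcr5*, which served as cell type markers. This gave 51 of the 38384 genes of the table. Poly(A)+ RNA of ING WAT had been sequenced from 8 mice, of which m1, m49, m138 and m145 were taken at PN21 and m35, m106, m114 and m125 at PN98, and no genetic change was labelled in either group. In the study as a whole, dams and pups received the AIN93G diet, which weaned mice kept until PN42 before they received AIN93M or a western style diet (WSD), and mice were fasted before dissection. For the sequenced mice, the sources used here give neither the PN98 diet nor, at PN21, the sex. The Y-linked *Ddx3y* lay between 18.1 and 25.9 FPKM in all 8 mice, and *Xist*, expressed from the inactive X chromosome of females, was at most 0.832 FPKM.

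Chemokines are small secreted proteins that attract leukocytes along a gradient, and they are grouped as CC, CXC, CX3C and XC by the spacing of their first cysteines. They bind membrane receptors that signal through inhibitory G proteins, and atypical receptors that take chemokines up without such signalling. In adipose tissue, CC ligands made by stromal cells, adipocytes and macrophages recruit monocytes, whereas other ligands place lymphocytes and dendritic cells in lymphoid tissue. The inguinal depot surrounds a lymph node, so dissected ING WAT can hold lymphoid tissue.

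Expression is given as FPKM, fragments scaled to transcript length and to the mapped fragments of the library, summed over the transcripts of each gene. Differences are PN98 minus PN21 on the log2(FPKM + 1) scale, which understates changes of genes with low levels, with p-values from limma adjusted by Benjamini-Hochberg over all 16092 genes with a mean of at least 1 FPKM. Read counts were not used here and the depth of each library is unknown. Of the 51 members, 32 entered the test, 16 had a mean under 1 FPKM and *Ccl26* was listed at 0 in all 8 mice. The pseudogenes *Ccl19-ps1* and *Ccl19-ps3* gave no value, because the lost decimal marks of their FPKM values could be restored in more than 1 way.

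PN98 mouse m35 differed from the other PN98 mice in its lymphocyte and lymph node markers. The 8 T cell markers in the table summed to 297 to 688 FPKM at PN21 and 546 FPKM in m35, against 15.7 to 92.5 FPKM in m106, m114 and m125. The 8 B cell markers summed to 280 to 661 FPKM at PN21, 692 FPKM in m35 and 9.69 to 154 FPKM in the other PN98 mice, and the 6 lymph node stroma markers to 186 to 428, 470 and 12.5 to 61.0 FPKM. T and B cell markers were thus in the range of PN21 or above it in m35 and below that range in the other 3 PN98 mice. The part of these markers in the chemokine results was not tested, and the comparisons of genes are therefore given with and without m35. Mouse m35 was singled out after its values were seen, so adjusted p-values without it are a description. The 9 macrophage and monocyte markers summed to 419 to 681 FPKM at PN21 and 193 to 841 FPKM at PN98, with m35 highest, and 0 of the 9 passed the limma test (1 had an unadjusted p under 0.05). Adipocyte markers were present at both ages, with *Adipoq*, which encodes adiponectin, at 817 to 1279 FPKM at PN21 and 2512 to 3653 FPKM at PN98. In bulk tissue, fewer cells of a type and less RNA per cell cannot be told apart.

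Of the 32 members tested, *Cxcl14* and *Cxcl9* were higher at PN98 and passed at an adjusted p under 0.05, as did 2.33% of all genes tested. In the lower direction 0 members passed, against 2.91% of all genes. An unadjusted limma p under 0.05 was found for 11 members, 9 of them lower at PN98, and weighting the mice by limma's arrayWeights, which gave m35 the lowest weight of 0.348, called 12 members lower. The share over all genes was computed for neither count, nor for the unadjusted counts given for other gene groups. These counts cannot be read as particular to the members or to those groups. Over the members, the log2 fold change had a median of −0.58, against −0.21 over all genes, and 23 of the 32 members (71.9%) lay below 0, against 67.0% of all genes. With median of ratios scaling, the median of all genes was −0.02 and that of the members −0.43, and with scaling to nuclear genes they were 0.01 and −0.41. Both scalings gave the same counts of 2 higher and 0 lower members.

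The ages did not overlap for 4 of the 32 members tested. *Cxcl14* and *Cxcl9* were higher in every PN98 mouse than in any PN21 mouse, which held for 6.06% of all genes, and *Ccl22* and *Ccr10* were lower in every PN98 mouse, which held for 9.99%. Among the members not tested, *Ccl28* was higher at PN98 without overlap and *Ccr4*, *Ccr8* and *Cxcl5* were lower. All of these had means under 1 FPKM, and *Ccl28* and *Cxcl5* were at most 0.168 and 0.181 FPKM in any mouse. The share of genes with such low means that did not overlap was not computed, so these members are a description only. The summed FPKM of the 49 members with a value was 627, 582, 892 and 815 in m1, m49, m138 and m145 at PN21 and 995, 416, 532 and 250 in m35, m106, m114 and m125 at PN98. The highest sum and the 3 lowest sums thus all belonged to PN98 mice. Mouse m35 had the highest PN98 value in 20 of the 32 members (62.5%, against 50.3% of all genes), and m125 the lowest in 23 (71.9%, against 50.6%). The median of ratios scaling factors were 1.07 to 1.16 at PN21. At PN98 they were 1.15, 0.909, 0.9535 and 0.771 in m35, m106, m114 and m125. These comparisons of mice and the fits without m35 used unscaled FPKM, and the part of this library-wide difference was not tested.

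**Figure D1:**
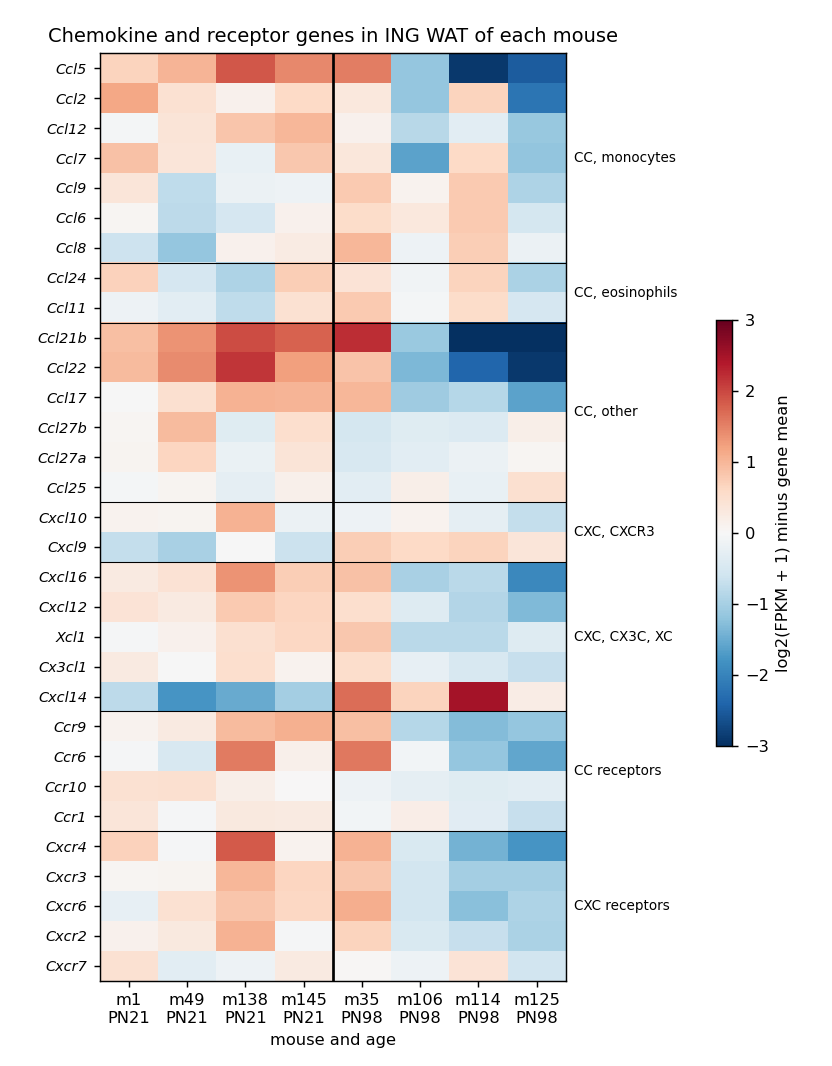
Level of the members tested and reported in each of the 8 mice, drawn as log2(FPKM + 1) minus the mean of that gene over the 8 mice, with colours that stop at −3 and 3. Rows are grouped by role and the vertical line separates PN21 from PN98; m35 is red in the rows of *Ccl5*, *Ccl21b*, *Ccl17*, *Cxcr4* and *Cxcr6*, in which the other 3 PN98 mice are blue, whereas *Cxcl9* and *Cxcl14* are higher in all 4 PN98 mice than in any PN21 mouse.

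When m35 was left out, *Cxcl14* and *Cxcl9* again passed in the higher direction, as did 4.29% of all genes. In the lower direction, 0 members passed when any other single mouse was left out. Without m35, 15 members passed as lower, which is 46.9% of those tested, against 18.0% of all genes. They were the ligands *Cxcl16*, *Xcl1*, *Cx3cl1*, *Ccl22*, *Ccl17*, *Ccl5*, *Ccl12*, *Cxcl12* and *Ccl21b* and the receptors *Cxcr2*, *Ccr9*, *Ccr10*, *Cxcr4*, *Cxcr6* and *Cxcr3*. The median log2 fold change of the members without m35 was −0.82, against −0.27 over all genes. For 9 members (28.1%), m35 lay inside the range of the PN21 mice and the other 3 PN98 mice below it, as for 16.8% of all genes. The 3 PN98 mice other than m35 lay below all 4 PN21 mice in 15 members (46.9%), as in 29.4% of all genes.

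**Figure D2:**
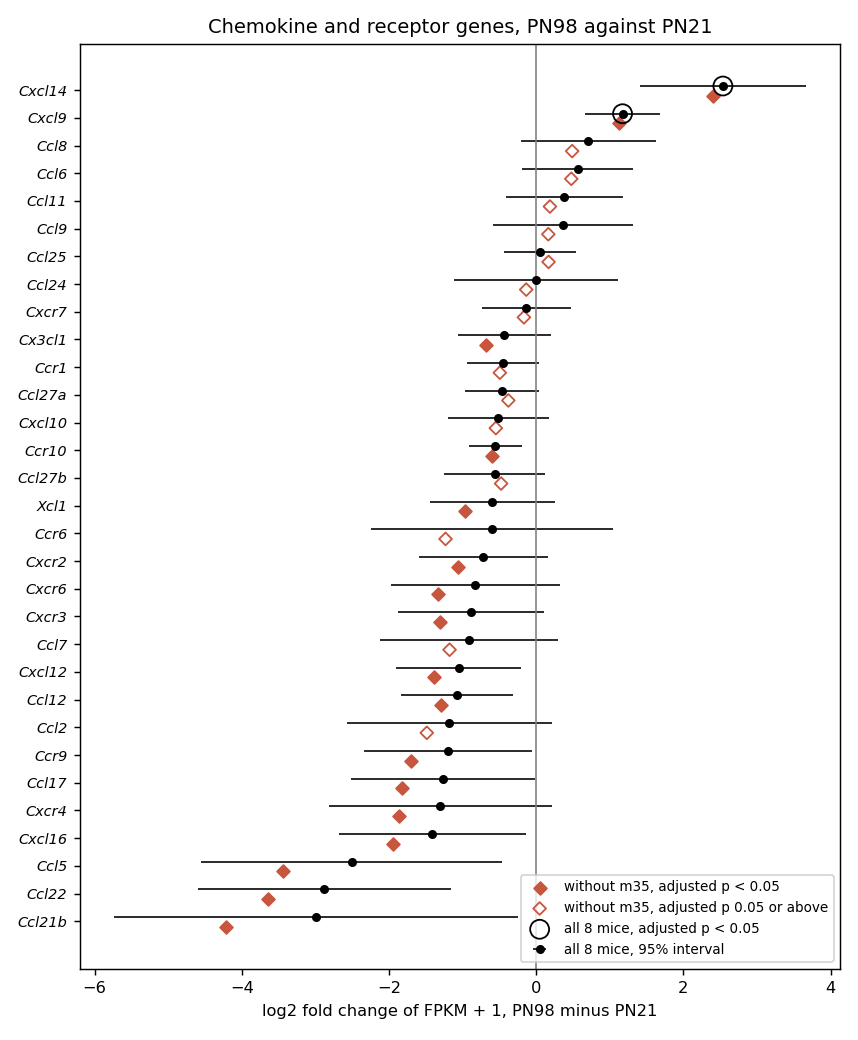
Log2 fold change of FPKM + 1, PN98 minus PN21, for the members tested and reported. Black points with lines are the estimates from all 8 mice with their 95% intervals, large circles mark an adjusted p under 0.05, and diamonds are the estimates without PN98 mouse m35, filled where the adjusted p was under 0.05. *Cxcl14* and *Cxcl9* are circled, and 15 members below 0 have filled diamonds.

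*Cxcl14* encodes a CXC chemokine expressed in skin, adipose and other tissues in the absence of inflammation, and it had the highest log2 fold change of the members tested. The gene (ENSMUSG00000021508) lies on the minus strand at chr13:56288643-56296551 of GRCm38. Its level at PN21 was 3.56, 1.31, 1.78 and 2.91 FPKM in m1, m49, m138 and m145, and at PN98 it was 24.3, 11.6, 43.5 and 8.15 FPKM in m35, m106, m114 and m125. All PN98 mice were above all PN21 mice, and within PN98 the levels were spread widely, with m114 highest and m125 lowest. The mean was 2.39 ± 1.03 FPKM at PN21 and 21.9 ± 16.0 FPKM at PN98 (SD, n = 4 each). The log2 fold change was 2.54 (SE 0.49, 95% interval 1.41 to 3.66) with an adjusted p of 0.027 by limma. Without m35 it was 2.40 (SE 0.55) with an adjusted p of 0.0261. The call was lost, with adjusted p-values of 0.0538 to 0.0826 and log2 fold changes of 2.13 to 2.73, when m1, m49, m138, m145, m106 or m114 was left out. Beside it, the 6 adipocyte markers summed to 12258 to 22458 FPKM at PN21 and 32826 to 43321 FPKM at PN98, with m125 highest, and the 4 skeletal muscle markers in the table to 6.57 to 337 and 306 to 2060 FPKM, with m106 highest. The 6 markers of mammary and skin epithelium summed to 2.33 to 28.0 FPKM at PN21 and 0.211 to 1.36 FPKM at PN98. Single markers differed in which PN98 mouse was highest, and the ones named next were chosen after their values were seen. Of the adipocyte markers, *Adipoq* was highest in m114 (3653 FPKM) and *Fabp4*, which makes up most of the sum, in m125 (37466 FPKM). The 6 fibroblast and progenitor markers summed to 1298 to 2891 FPKM at PN21 and 651 to 1942 FPKM at PN98. Of these, the collagen genes *Col1a1* and *Col1a2* fell. *Dpt*, which encodes dermatopontin of the extracellular matrix, was at 809, 385, 1048 and 222 FPKM in m35, m106, m114 and m125. *Pi16*, a progenitor marker, was at 89.7, 65.8, 126 and 51.1 FPKM in the same mice. The order of these 4 mice in *Dpt* and *Pi16* was that in *Cxcl14*, and the members *Ccl6*, *Ccl9* and *Cxcr7* had this order as well. Of the 6 fibroblast and progenitor markers, 3 had a log2 fold change below 0, and the median was 0.07. By limma 2 of the 6 passed as lower and 0 as higher, against 2.91% and 2.33% of all genes. The part of these cells in the *Cxcl14* result was not tested.

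*Cxcl9*, *Cxcl10* and *Cxcl11* encode the interferon-induced ligands of the receptor CXCR3, which is carried by activated T cells and natural killer cells. They are neighbours on chromosome 5, all on the minus strand, within 44.1 kb at chr5:92321347-92365485. *Cxcl9* (ENSMUSG00000029417) was at 6.39, 5.21, 11.0 and 6.79 FPKM in m1, m49, m138 and m145 and at 19.2, 17.2, 18.2 and 14.6 FPKM in m35, m106, m114 and m125. Every PN98 mouse was above every PN21 mouse, and m35 was close to the other PN98 mice. The mean was 7.34 ± 2.52 FPKM at PN21 and 17.3 ± 1.96 FPKM at PN98 (SD, n = 4 each), and the log2 fold change was 1.17 (SE 0.22, 95% interval 0.67 to 1.68, adjusted p = 0.0252 by limma). Without m35 it was 1.12 (SE 0.24) with an adjusted p of 0.0217. When m1, m49, m145, m106 or m114 was left out, the adjusted p was 0.0639 to 0.0841, at log2 fold changes of 1.05 to 1.17.

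*Cxcl10* did not pass the test that its neighbour passed. It was at 5.38, 5.26, 11.3 and 4.24 FPKM in m1, m49, m138 and m145 and at 4.36, 5.40, 3.98 and 2.61 FPKM in m35, m106, m114 and m125, so the ages overlapped. The log2 fold change was −0.51 (SE 0.30, 95% interval −1.20 to 0.17, adjusted p = 0.285). Without m35 it was −0.55 with an adjusted p of 0.274. *Cxcl10* overlaps *Art3* on the opposite strand, and the strand setting of the quantification is not given in the sources used here, so reads of the 2 genes may be mixed. *Cxcl11* had 0.107 to 0.274 FPKM at PN21 and 0.136 to 0.250 FPKM at PN98 and was not tested. GENCODE vM21 lists it as a polymorphic pseudogene.

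The ratio of *Cxcl9* to *Cxcl10* within a mouse does not depend on how the libraries were scaled, and it was looked at after the values of both genes had been seen. It was 1.19, 0.990, 0.976 and 1.60 in m1, m49, m138 and m145 and 4.40, 3.19, 4.57 and 5.60 in m35, m106, m114 and m125. All PN98 mice were above all PN21 mice, and m35 was among them. The mean log2 ratio was 0.22 (SD 0.33) at PN21 and 2.12 (SD 0.34) at PN98, a difference of 1.90. Since the ratio pairs 2 genes chosen for their values, it is a description and no test was made. With the coding transcript Cxcl10-201 alone the difference was 2.28, and leaving out 1 mouse at a time gave 1.78 to 2.06. The former leaves out Cxcl10-202, also listed as coding, which was at 0 to 0.454 FPKM with m106 highest.

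**Figure D3:**
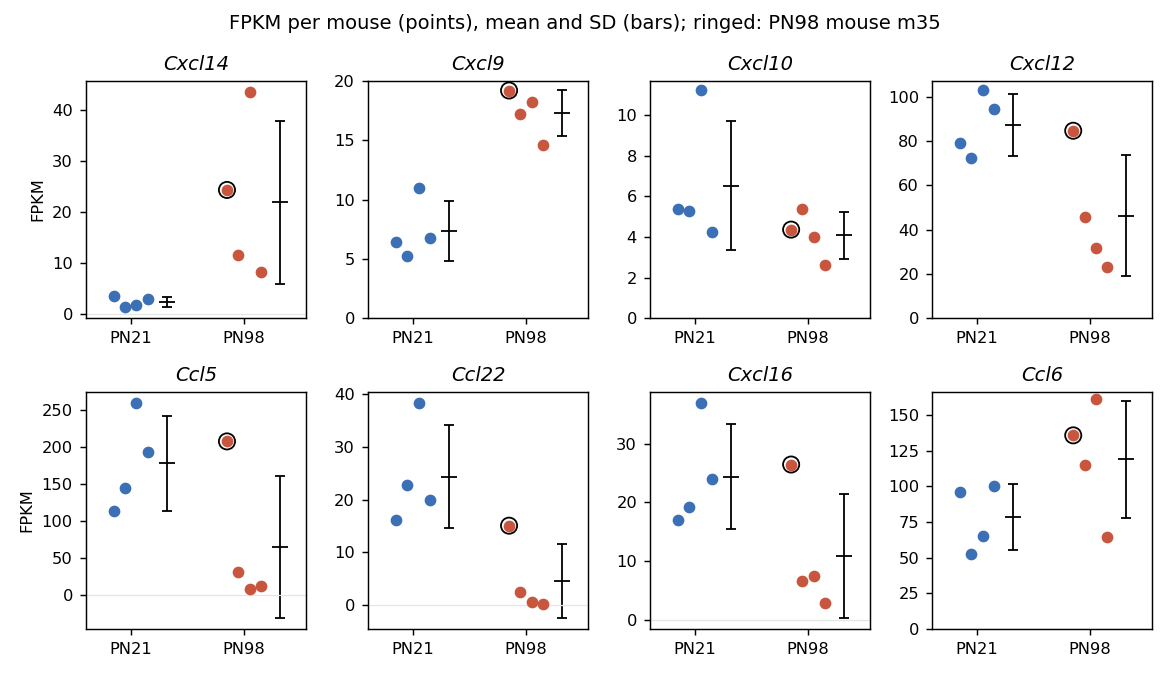
FPKM of 8 members in each mouse at PN21 (blue) and PN98 (red), with the mean and SD of the 4 mice as bars and PN98 mouse m35 ringed. *Cxcl14* and *Cxcl9* separate the ages, *Ccl5*, *Ccl22*, *Cxcl12* and *Cxcl16* show m35 apart from 3 low PN98 mice, and *Cxcl10* and *Ccl6* overlap between the ages.

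The promoter windows of *Cxcl9*, *Cxcl10* and *Cxcl14* are shown because *Cxcl9* and *Cxcl14* were the members that rose and *Cxcl10* is the neighbour of *Cxcl9* that did not pass the test. Each window runs from 250 bases before to 50 bases after the RefSeq start on GRCm38.p6, written 5′ to 3′ on the minus strand, at chr5:92328030-92328329, chr5:92348840-92349139 and chr13:56296502-56296801. Capitals mark matches, on either strand, to the interferon-stimulated response element (GAAA, any 2 bases and GAAA again), the gamma-activated sequence (TTCNNNGAA) and an NF-kB-like motif (GGG, any 5 bases and CC), where overlapping matches form 1 run.
Cxcl9: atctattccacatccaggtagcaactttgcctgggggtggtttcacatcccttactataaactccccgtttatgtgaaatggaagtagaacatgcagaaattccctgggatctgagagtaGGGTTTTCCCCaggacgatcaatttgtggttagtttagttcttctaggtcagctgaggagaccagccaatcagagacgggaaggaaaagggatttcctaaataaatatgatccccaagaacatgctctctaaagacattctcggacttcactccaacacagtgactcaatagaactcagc
Cxcl10: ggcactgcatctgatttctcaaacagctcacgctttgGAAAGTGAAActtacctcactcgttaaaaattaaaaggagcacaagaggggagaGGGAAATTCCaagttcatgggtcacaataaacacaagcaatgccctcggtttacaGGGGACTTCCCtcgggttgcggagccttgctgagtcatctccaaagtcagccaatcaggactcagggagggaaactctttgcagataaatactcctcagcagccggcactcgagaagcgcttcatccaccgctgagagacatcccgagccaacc
Cxcl14: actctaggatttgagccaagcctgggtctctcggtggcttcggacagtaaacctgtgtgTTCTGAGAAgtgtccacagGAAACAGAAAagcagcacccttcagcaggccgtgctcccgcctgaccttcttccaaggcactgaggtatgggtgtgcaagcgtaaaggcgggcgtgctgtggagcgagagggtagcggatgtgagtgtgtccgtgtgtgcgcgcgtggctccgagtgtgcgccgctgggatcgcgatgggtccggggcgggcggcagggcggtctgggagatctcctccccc
The *Cxcl9* window held 2 overlapping NF-kB-like matches, GGGTTTTCCC and its neighbour 1 base on, starting 130 and 129 bases before the start. The *Cxcl10* window held an interferon-stimulated response element match, GAAAGTGAAA, 213 bases before the start, and NF-kB-like matches at 159, 104 and 103 bases. The *Cxcl14* window held GAAACAGAAA at 172 bases and the gamma-activated sequence match TTCTGAGAA at 191 bases. RefSeq windows were found for 36 of the 49 members, and the first was used for the 4 with more than 1. Among these, 2 (5.56%) held the interferon-stimulated element, 4 (11.1%) the gamma-activated sequence and 21 (58.3%) the NF-kB-like motif, against 3.44%, 8.3% and 50.8% of 32851 promoter windows of the same length. These matches describe the letters in the windows.

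The CC ligands that attract monocytes and macrophages did not move in 1 direction. Of 9 members, 7 were tested, 4 lay below 0 and 3 above. By limma 0 passed (2 had an unadjusted p under 0.05, for which no share over all genes was computed). *Ccl5*, made by T cells, natural killer cells and other leukocytes, had the highest mean at PN21 of all members. It was at 113, 144, 260 and 193 FPKM in m1, m49, m138 and m145 and at 207, 30.8, 8.58 and 11.7 FPKM in m35, m106, m114 and m125. Mouse m35 was inside the PN21 range and the other 3 PN98 mice were far below it. The mean was 178 ± 63.9 and 64.6 ± 95.6 FPKM (SD, n = 4 each), and the log2 fold change was −2.51 (SE 0.89, 95% interval −4.56 to −0.46, adjusted p = 0.132). Without m35 it was −3.44 (SE 0.46), with an adjusted p of 0.00781.

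*Ccl2*, *Ccl7* and *Ccl12* encode monocyte attractants that act on CCR2. *Ccl7* was at 13.7, 9.17, 5.81 and 13.0 FPKM at PN21 and 9.02, 1.63, 11.1 and 2.53 FPKM at PN98, with m106 and m125 below the PN21 range and m35 and m114 inside it (log2 fold change −0.91, SE 0.53, adjusted p = 0.284, and −1.18, adjusted p = 0.163, without m35). *Ccl2* showed the same split of the PN98 mice, with 12.9, 7.57, 5.84 and 8.37 FPKM at PN21 and 6.80, 1.76, 8.88 and 0.365 FPKM at PN98 (−1.18, SE 0.61, adjusted p = 0.237, and −1.49, adjusted p = 0.133, without m35). For both genes m114 had the highest level at PN98, so the split among PN98 mice was not that of the lymphocyte markers. *Ccl12* was at 4.20 to 9.75 FPKM at PN21 and 1.47 to 4.89 FPKM at PN98, with m35 the highest at PN98. Its log2 fold change was −1.08 (SE 0.33, adjusted p = 0.098), and −1.30 with an adjusted p of 0.0288 without m35. The coding transcript Ccl12-201 overlapped between the ages, at 1.16 to 2.45 FPKM at PN21 and 0.364 to 2.77 FPKM at PN98, with m114 highest. Ccl12-202, listed as a processed transcript and not as coding, was at 1.75 to 7.69 and 0.317 to 3.92 FPKM.

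*Ccl6*, *Ccl8* and *Ccl9* had the opposite sign. *Ccl6*, a CCR1 ligand made by macrophages and other myeloid cells, was at 95.8, 52.8, 65.0 and 100.4 FPKM at PN21 and at 136, 115, 161 and 64.4 FPKM at PN98, where m35, m106 and m114 were above all PN21 mice and m125 inside their range. The mean was 78.5 ± 23.2 and 119 ± 40.9 FPKM (SD, n = 4 each; log2 fold change 0.56, SE 0.33, 95% interval −0.19 to 1.32, adjusted p = 0.287). *Ccl8*, which encodes a monocyte and T cell attractant, was at 18.8, 12.5, 32.0 and 34.9 FPKM at PN21 and 59.9, 26.2, 49.3 and 26.0 FPKM at PN98 (0.71, SE 0.40, adjusted p = 0.277). The ages overlapped, with m35 and m114 above all PN21 mice. *Ccl9*, a CCR1 ligand next to *Ccl6*, was at 54.7, 24.6, 37.0 and 38.0 FPKM and at 72.8, 45.2, 73.4 and 21.6 FPKM (0.36, SE 0.41, adjusted p = 0.578). Again m35 and m114 were above all PN21 mice, and m125 was below them. Without m35 the log2 fold changes were 0.48 for *Ccl6*, 0.49 for *Ccl8* and 0.16 for *Ccl9*, with adjusted p-values of 0.378, 0.417 and 0.815. The last 2 genes of the group, *Ccl3* and *Ccl4*, the macrophage inflammatory proteins, had means under 1 FPKM and were not tested, with 0.161 to 0.933 and 0.197 to 1.21 FPKM at PN21 and 0.0942 to 0.411 and 0.454 to 1.63 FPKM at PN98.

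The CCR3 ligands *Ccl11*, which encodes eotaxin, and *Ccl24* attract eosinophils. *Ccl11* was at 29.0, 25.6, 18.6 and 44.3 FPKM at PN21 and at 55.8, 30.8, 47.4 and 22.3 FPKM at PN98. The ages overlapped, with m35 and m114 above all PN21 mice (log2 fold change 0.38, SE 0.35, 95% interval −0.42 to 1.18, adjusted p = 0.484, and 0.19, adjusted p = 0.728, without m35). *Ccl24* ranged from 2.47 to 9.95 FPKM at PN21 and from 2.40 to 9.40 FPKM at PN98, and the 95% interval of its log2 fold change was −1.12 to 1.12, with an estimate of −0.14 (adjusted p = 0.882) without m35. Their receptor gene *Ccr3* had 0.355 to 0.693 FPKM at PN21 and 0.0482 to 0.357 FPKM at PN98, and the 3 eosinophil markers in the table summed to 1.16 to 4.54 and 0.231 to 2.32 FPKM. *Epx*, the eosinophil peroxidase gene, was at most 0.111 FPKM at PN21 and listed at 0 in all PN98 mice. *Prg2*, the only one of the 3 that was tested, was at 0.572 to 3.63 FPKM at PN21 and 0.0933 to 0.849 FPKM at PN98 (log2 fold change −0.80, adjusted p = 0.174).

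Ligands that place lymphocytes and dendritic cells had the 2 lowest log2 fold changes of the members. *Ccl22*, made by dendritic cells and macrophages, and *Ccl17*, made by dendritic cells, encode the ligands of CCR4. *Ccl22* was at 16.2, 22.8, 38.3 and 20.0 FPKM in m1, m49, m138 and m145 and at 15.1, 2.52, 0.711 and 0.191 FPKM in m35, m106, m114 and m125. All PN98 mice were below all PN21 mice, with m35 just below the lowest of them. The mean was 24.3 ± 9.72 and 4.62 ± 7.03 FPKM (SD, n = 4 each), and the log2 fold change was −2.88 (SE 0.75, 95% interval −4.60 to −1.16), with an adjusted p of 0.0654. Without m35 it was −3.64 (SE 0.43) with an adjusted p of 0.00597. *Ccl17* was at 2.61 to 6.50 FPKM at PN21, 6.30 FPKM in m35 and 0.191 to 0.999 FPKM in the other PN98 mice. Its log2 fold change was −1.27 (adjusted p = 0.179), and −1.82 without m35 (adjusted p = 0.0137). *Ccr4*, their receptor gene, had a mean under 1 FPKM, with 0.867 to 1.92 FPKM at PN21 and 0.0229 to 0.586 FPKM at PN98, so the ages did not overlap.

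*Ccl21b* encodes a CCR7 ligand of lymphoid stroma. It was at 62.0, 84.9, 130 and 115 FPKM in m1, m49, m138 and m145 and at 156, 14.6, 3.04 and 1.12 FPKM in m35, m106, m114 and m125. Mouse m35 was above all PN21 mice and the other PN98 mice were below all of them. The log2 fold change was −2.99 (SE 1.20, 95% interval −5.73 to −0.24, adjusted p = 0.16), and without m35 it was −4.22 (SE 0.65, adjusted p = 0.011). *Ccl21b* is a near-identical copy of *Ccl21a*, a lymph node stroma marker here, so its values are uncertain as those of 1 gene.

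**Figure D4:**
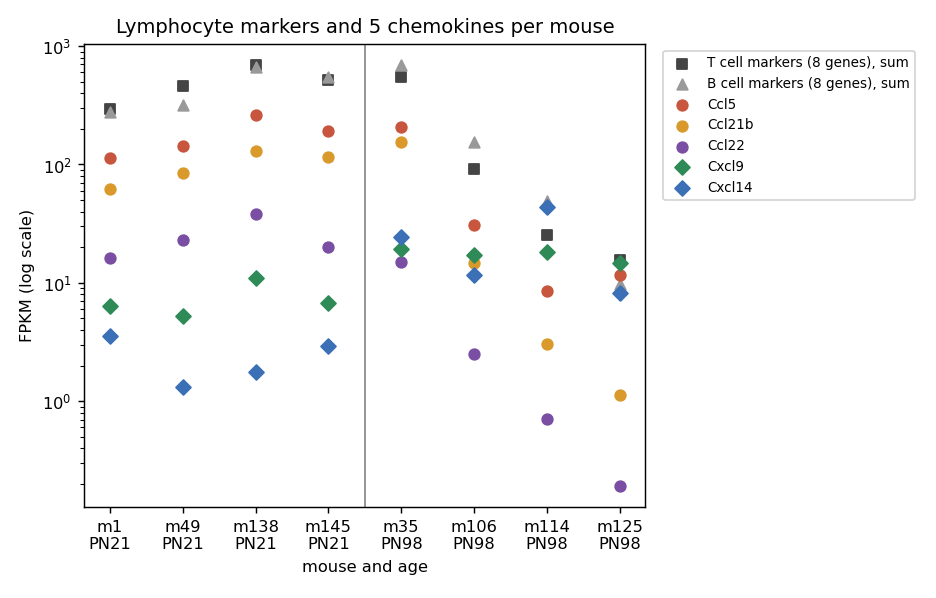
Summed FPKM of 8 T cell and 8 B cell markers and FPKM of 5 members in each mouse, on a log scale, with PN21 left and PN98 right of the line. *Ccl5*, *Ccl21b* and *Ccl22* lie low in m106, m114 and m125, as the marker sums do, and *Cxcl9* and *Cxcl14* lie above their PN21 values in all 4 PN98 mice.

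Ligands of epithelia and gut were at low to moderate levels. *Ccl27a*, the skin chemokine that binds CCR10, was at 14.7, 22.5, 12.1 and 18.7 FPKM at PN21 and 9.63, 11.1, 12.2 and 14.5 FPKM at PN98. The ages overlapped, and m35 was the lowest mouse (log2 fold change −0.47, SE 0.22, adjusted p = 0.207). It has 19 transcripts in the table, overlaps *Il11ra1* and has the copy *Ccl27b*, so the values of both are uncertain. *Ccl27b* had a log2 fold change of −0.56 (adjusted p = 0.25). *Ccl25*, the CCR9 ligand of thymus and gut, differed by 0.05 (95% interval −0.43 to 0.54) in the sum of its transcripts. Its coding transcript Ccl25-201 was at 2.21 to 4.00 FPKM at PN21 and 5.9e-09 to 2.74 FPKM at PN98, with m35 lowest (limma adjusted p = 0.468). The rest of the sum lay in other transcripts, some not listed as coding. Without m35 the log2 fold changes were −0.38 for *Ccl27a*, −0.48 for *Ccl27b* and 0.17 for *Ccl25* (adjusted p = 0.267, 0.329 and 0.583). *Ccl1*, *Ccl20* and *Ccl28* had means under 1 FPKM. Of these, *Ccl28*, a mucosal ligand, was at 0.060 to 0.127 FPKM at PN21 and 0.134 to 0.168 FPKM at PN98 without overlap, at a level near 0.

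*Cxcl12*, the stromal ligand of CXCR4 that retains leukocytes and progenitors in tissue, was expressed at 78.9, 72.1, 103 and 94.4 FPKM in m1, m49, m138 and m145 and at 84.6, 45.6, 31.8 and 23.0 FPKM in m35, m106, m114 and m125. Mouse m35 was in the PN21 range and the other PN98 mice were below it. The mean was 87.1 ± 14.1 and 46.2 ± 27.2 FPKM (SD, n = 4 each), and the log2 fold change was −1.05 (SE 0.37, 95% interval −1.90 to −0.20, adjusted p = 0.129). Without m35 it was −1.39 (SE 0.25, adjusted p = 0.0148). The 5 endothelial markers summed to 160 to 237 FPKM at PN21, 259 FPKM in m35 and 71.4 to 153 FPKM in the other PN98 mice, and their part in the result was not tested.

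*Cxcl16* encodes a ligand of CXCR6 that is held in the membrane until it is shed. It was at 17.0, 19.3, 37.0 and 24.0 FPKM at PN21 and at 26.5, 6.61, 7.56 and 2.89 FPKM at PN98, again with m35 inside the PN21 range and the other PN98 mice below it. The log2 fold change was −1.41 (SE 0.55, adjusted p = 0.154), and without m35 it was −1.94 (SE 0.36, adjusted p = 0.0156). *Cx3cl1*, the membrane-bound CX3C ligand fractalkine, was at 1.54 to 2.62 FPKM at PN21, 2.69 FPKM in m35 and 0.562 to 1.16 FPKM in the other PN98 mice (−0.44, and −0.69 without m35). *Xcl1*, the lymphotactin of T and natural killer cells, was at 2.74 to 4.95 FPKM at PN21, 5.70 FPKM in m35 and 1.21 to 1.95 FPKM in the other PN98 mice (−0.60, and −0.96 without m35). Both passed without m35 (adjusted p = 0.0398 and 0.0243) and not with all 8 mice (0.325 and 0.314). *Cxcl17*, a mucosal chemokine, was at most 0.282 FPKM in any mouse.

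The CXC ligands that attract neutrophils through CXCR2, which carry a glutamate-leucine-arginine motif, were near 0 at both ages. All 4 with a value, *Cxcl1*, *Cxcl2*, *Cxcl3* and *Cxcl5*, had means under 1 FPKM, and the highest value among them was 1.32 FPKM, of *Cxcl1* in m1. *Cxcl5* was at 0.0417 to 0.181 FPKM at PN21 and 0 to 0.0353 FPKM at PN98, without overlap. Summed over the 4 genes, they had 0.800 to 2.02 FPKM at PN21 and 0.192 to 1.01 FPKM at PN98. The 5 neutrophil markers in the table summed to 54.1 to 121 FPKM at PN21 and 2.66 to 8.85 FPKM at PN98, and *S100a9*, an abundant neutrophil gene, fell by 4.44 on the log2 scale (adjusted p = 0.00145). All PN98 mice, m35 included, were below all PN21 mice in this sum. *Cxcr2*, the receptor gene, was at 0.913 to 3.05 FPKM at PN21, 2.11 FPKM in m35 and 0.0209 to 0.431 FPKM in the other PN98 mice, so that m35 was inside the PN21 range (−0.72, adjusted p = 0.251, and −1.06, adjusted p = 0.038, without m35). *Cxcr1* was at most 0.111 FPKM.

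Of the 9 CC receptor genes, 5 were tested and 4 lay below 0, as did 67.0% of all genes. With limma 0 passed (2 had an unadjusted p under 0.05, for which no share over all genes was computed). *Ccr10*, the receptor of *Ccl27a*, was at 2.37, 2.41, 1.78 and 1.47 FPKM at PN21 and 1.20, 1.03, 0.914 and 0.972 FPKM at PN98. All PN98 mice, m35 included, were below all PN21 mice (−0.56, SE 0.16, 95% interval −0.92 to −0.20, adjusted p = 0.0813, and −0.60, adjusted p = 0.0401, without m35). *Ccr9*, which guides lymphocytes to the gut, was at 1.79 to 4.43 FPKM at PN21, 3.91 FPKM in m35 and 0.0588 to 0.451 FPKM in the other PN98 mice (−1.19, adjusted p = 0.172, and −1.70, adjusted p = 0.0123, without m35).

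*Ccr6*, found on B cells and some T cells, was at 7.87 FPKM in m35 and 7.70 FPKM in m138, against at most 2.26 FPKM in every other mouse, and *Ccr1*, of myeloid cells, differed by −0.45 (adjusted p = 0.211, and −0.49, adjusted p = 0.163, without m35). The log2 fold change of *Ccr6* was −0.60 (adjusted p = 0.596), and −1.23 (adjusted p = 0.146) without m35. *Ccr8*, of T cell subsets, had a mean under 1 FPKM, with 0.919 to 2.23 FPKM at PN21 and 0 to 0.673 FPKM at PN98. It did not overlap between the ages, as *Ccr4* did not. *Ccr1l1* was at most 0.0723 FPKM.

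All 5 CXC receptor genes tested lay below 0 and with limma 0 passed (0 had an unadjusted p under 0.05), whereas 4 passed without m35. Of all genes, 67.0% lay below 0 and 18.0% passed as lower without m35. *Cxcr4*, the receptor of CXCL12 on leukocytes, was at 16.5, 9.66, 38.2 and 10.6 FPKM at PN21 and at 21.3, 6.90, 3.08 and 2.19 FPKM at PN98, with m35 inside the PN21 range and the other 3 below it. The log2 fold change was −1.30 (SE 0.66, adjusted p = 0.231), and without m35 −1.87 (SE 0.52, adjusted p = 0.0436). *Cxcr3*, the receptor of CXCL9 and CXCL10, was at 2.69, 2.79, 6.05 and 4.55 FPKM at PN21 and at 5.24, 1.45, 0.759 and 0.756 FPKM at PN98. In m106, m114 and m125 the receptor gene was thus below all PN21 mice while *Cxcl9* was above all of them (*Cxcr3* −0.88, SE 0.43, adjusted p = 0.22, and −1.30, adjusted p = 0.0215, without m35). *Cxcr6*, the receptor of CXCL16 on T and natural killer cells, was at 2.43 to 6.25 FPKM at PN21, 7.64 FPKM in m35 and 0.709 to 1.77 FPKM in the other PN98 mice (−0.83, adjusted p = 0.303, and −1.33, adjusted p = 0.024, without m35).

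*Cxcr7*, named *Ackr3* in GENCODE vM21, encodes an atypical receptor that takes up CXCL12. It was at 15.6, 8.64, 9.89 and 13.5 FPKM at PN21 and at 11.4, 9.91, 15.0 and 7.08 FPKM at PN98. The ages overlapped with m35 in the middle of them, which differs from the order of the mice in *Cxcr4*. Its log2 fold change was −0.13 (SE 0.26, 95% interval −0.73 to 0.47, adjusted p = 0.76), and 0.077 and 0.11 under median of ratios scaling and scaling to nuclear genes. The value without m35 was −0.17 (adjusted p = 0.708).

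Chemokine genes lie in clusters, joined here where neighbouring members were less than 500 kb apart. In the cluster at chr8:94745590-94812036 (66.4 kb), *Ccl22*, *Cx3cl1* and *Ccl17* all lay below 0, between −2.88 and −0.44. In the cluster at chr11:82035571-82305690, *Ccl2*, *Ccl7* and *Ccl12* lay below 0 and the neighbours *Ccl8* and *Ccl11* above it. The next cluster, at chr11:83525778-83664683, held *Ccl5*, the lowest of the monocyte ligands, beside *Ccl6* and *Ccl9*, which lay above 0. Values within a cluster thus differed in sign in both chromosome 11 clusters and, for *Cxcl9* and *Cxcl10*, on chromosome 5. Counting of reads that neighbouring copies share was not tested.

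At the level of single transcripts, 36 member transcripts, from 28 genes, were above 0 in every mouse with a mean above 2 FPKM at either age, and were compared by limma on log2(FPKM) without a pseudocount. An unadjusted p under 0.05 was found for 3 in the higher direction (6.93% of all 23144 transcripts) and for 10 in the lower direction (14.8%). After Benjamini-Hochberg adjustment 0 of the 36 passed, and the lowest adjusted p was 0.0615. The 3 higher were Cxcl14-201, with the highest log2 fold change, Cxcl9-201 (1.29) and Ccl6-201 (0.90). The 10 lower were transcripts of *Cxcl12*, *Cxcl10*, *Ccr10*, *Cxcl16*, *Ccl12*, *Ccl21b*, *Ccl5*, *Ccr9* and *Ccl22*, with log2 fold changes between −3.94 and −0.94. Those of *Ccl12* and *Cxcl16* were Ccl12-202 and Cxcl16-202, which are not listed as coding. The coding transcript Cxcl10-201, at −0.99, was among the 10 although its gene did not pass at the summed level. Its values were 3.67, 4.04, 9.41 and 4.24 FPKM at PN21 and 2.85, 1.92, 3.16 and 2.22 FPKM at PN98, without overlap between the ages. Transcripts are not independent of their gene's sum, since they are its parts.

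*Cxcl12* has coding transcripts with different 3′ ends that give different isoforms of the ligand. Cxcl12-202, of 1878 bases, was at 45.8, 48.1, 63.6 and 65.7 FPKM at PN21 and 55.6, 19.7, 16.2 and 10.4 FPKM at PN98 (log2 fold change −1.41, SE 0.49). Cxcl12-201, of 5627 bases, was at 17.0, 9.93, 15.6 and 9.70 FPKM and at 14.0, 14.5, 8.48 and 6.44 FPKM (−0.30, SE 0.35). For the longer transcript, m35 and m106 were inside the PN21 range and m114 and m125 below it, while for the shorter m106 was below it as well. The share of Cxcl12-202 in the FPKM of the gene was 58.0% to 69.6% at PN21, 65.7% in m35 and 43.1% to 50.9% in the other PN98 mice, and that of Cxcl12-201 was 10.3% to 21.6%, 16.6% and 26.7% to 31.9%. Such shares rest on the assignment of reads to overlapping transcripts by the quantification.

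**Figure D5:**
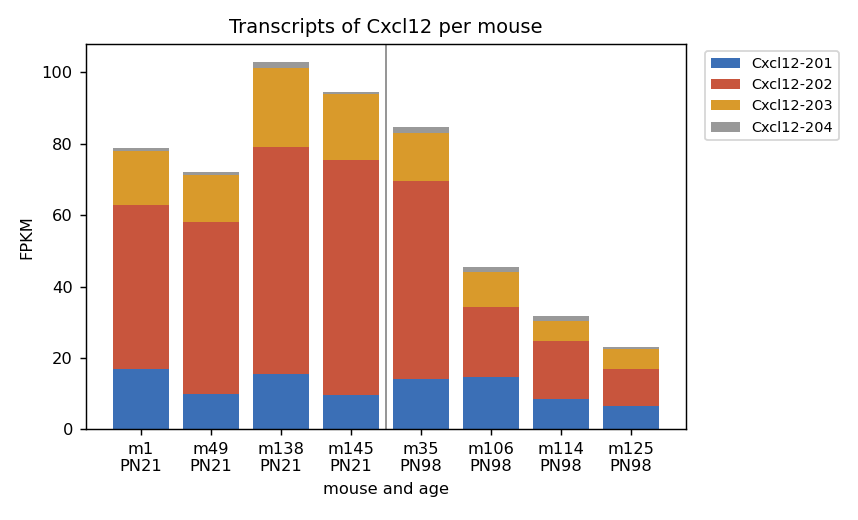
FPKM of the *Cxcl12* transcripts in each mouse, stacked to the sum of the gene, with PN21 left and PN98 right of the line. The sum is 72.1 to 103 FPKM at PN21, 84.6 FPKM in m35 and 23.0 to 45.6 FPKM in the other PN98 mice, in which Cxcl12-202 holds a smaller share.

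*Ccl6* and *Ccl9* show how much a gene's sum can rest on short transcripts that are not listed as coding. The sum of *Cxcl16*, given above, also rests mostly on transcripts not listed as coding. Ccl6-202, of 776 bases and listed as a retained intron, held 44.8 to 87.9 FPKM of the *Ccl6* sum at PN21 and 50.1 to 139 FPKM at PN98. The coding Ccl6-201 held 6.78 to 12.5 FPKM and 12.5 to 20.8 FPKM. For *Ccl9*, the 398-base Ccl9-202, listed as a processed transcript, held 19.7 to 45.7 FPKM at PN21 and 16.9 to 61.1 FPKM at PN98. The levels of these genes relative to other members therefore depend on how reads were assigned among their transcripts.

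Among 9 atypical receptors and other family genes outside the members, 8 were in the table (*Cxcr7* among them), 7 were tested and 5 lay below 0, as did 67.0% of all genes. With limma 0 of the 7 passed (3 had an unadjusted p under 0.05, for which no share over all genes was computed). *Cx3cr1*, the fractalkine receptor of monocytes and macrophages, was at 2.68 to 4.57 FPKM at PN21 and 0.0501 to 2.43 FPKM at PN98 without overlap (log2 fold change −1.48, adjusted p = 0.0536). *Ccrl1*, or *Ackr4*, an atypical receptor of CCR7 ligands, was at 1.32 to 2.34 and 0.618 to 1.16 FPKM, also without overlap (−0.69, adjusted p = 0.0598). *Darc*, or *Ackr1*, a chemokine-binding protein of venules, was at 7.29 to 16.6 and 2.85 to 7.79 FPKM (−1.01, adjusted p = 0.0963), and *Pf4*, a platelet and macrophage chemokine, at 49.5 to 140 and 29.0 to 78.5 FPKM (−0.43). Without m35, 3 of the 7 passed as lower, against 18.0% of all genes. They were *Cx3cr1* (−1.82, adjusted p = 0.00627), *Ccrl1* (−0.78, adjusted p = 0.0218) and *Darc* (−1.18, adjusted p = 0.036), and *Pf4* was at −0.51.

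The 24 genes of signalling behind chemokine receptors were all tested. Of these 23 lay below 0, as did 67.0% of all genes, and the median log2 fold change was −0.52 against −0.21 over all genes. With limma 0 passed (4 had an unadjusted p under 0.05, for which no share over all genes was computed). *Rac2*, the leukocyte form of the Rac GTPases, was at 34.5, 45.0, 81.5 and 56.4 FPKM at PN21 and 59.3, 12.1, 6.84 and 2.23 FPKM at PN98. *Dock2*, a leukocyte activator of Rac, was at 26.4, 20.2, 50.2 and 17.8 FPKM and at 52.9, 7.11, 10.6 and 1.93 FPKM. Both leukocyte genes had m35 in or above the PN21 range and the other PN98 mice below it. They were picked from the 24, and others lacked this pattern. *Rgs2* was at 19.9 FPKM in m35, below its PN21 range of 26.5 to 78.3 FPKM. *Rac1* was at 115 FPKM in m114, inside its PN21 range of 97.0 to 118 FPKM. Without m35, 9 of the 24 were lower with an adjusted p under 0.05, as were 18.0% of all genes. Among the 9 were *Rac2* (−2.93, against −2.15 with all mice) and *Dock2* (−2.07, against −1.31). The median of the 24 without m35 was −0.65, against −0.27 over all genes.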

How the data were processed

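Poly(A)+ RNA of ING WAT of 4 PN21 and 4 PN98 mice had been sequenced paired-end from directional libraries. Per the paper's methods, the authors mapped reads to mm10 with STAR 2.3.0 and quantified transcripts with Cufflinks 2.1.1 on a Gencode annotation, and they deposited 1 FPKM value per transcript and mouse, together with tables of their own comparison, whose fold changes and p-values were not used. How strand was handled is not given in the sources used here. Of 91969 transcripts, 40504 had lost decimal marks, which were restored from the deposited SD, average and score. These summarise 10 libraries, of which 2 were not analysed here. A single reading was found for 40454, and 50 were left out. For 5016 of the restored transcripts the deposited comparison table holds the same FPKM values with intact decimals, and all 5016 were equal.

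FPKM were summed per gene over its transcripts, assigned by GENCODE vM21 (88737 transcripts) or, where outside it, by the table's single gene (1928). Genes with a mean of at least 1 FPKM were compared on log2(FPKM + 1) with limma 3.58.1 (R 4.3.3) and Benjamini-Hochberg adjustment. Transcripts above 0 in all mice with a mean above 2 FPKM at either age were compared on log2(FPKM). The script was tested on simulated data. Values in every mouse are given for members with an adjusted p under 0.05, with a mean of at least 10 FPKM at either age, or among the 5 highest and 5 lowest log2 fold changes, and for some others chosen after their values were seen. Members and gene lists were chosen with earlier results of these data known. Alternatives were another pseudocount, filters, scalings, arrayWeights, limma-trend, intact decimals and leaving out each mouse. The values of 1 member are not reported here, and it is in the counts over members.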

Additional observations from a re-analysis of the deposited data

Results flagged for a closer look

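In 3 of 32 groups of 4 mice examined (16 members at each age), 1 mouse stood apart from the others by Dixon's criterion on FPKM without logarithms. Its rate of about 1 in 20 groups holds for normally distributed values and independent groups. Neither was checked, and the members were measured in the same mice, so the 3 groups are a description. All 3 were PN98 mouse m35. *Ccl21b* was at 156 FPKM in m35, and the nearest PN98 mouse was at 14.6 FPKM. *Ccl5* was at 207 FPKM, and the nearest was at 30.8 FPKM. *Ccl22* was at 15.1 FPKM, and the nearest was at 2.52 FPKM. The summed T cell markers of m35 were 546 FPKM, against at most 92.5 FPKM in the other PN98 mice, and their part in these values was not tested.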

How the results depend on the processing

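Of the 2 members higher at PN98, 1 remained called without a filter on low values, where the adjusted p of *Cxcl14* was 0.0511, and 0 could be called with intact decimal marks, under which 1 member was tested and the median log2 fold change was 0.63 in place of −0.58. Weighting by arrayWeights gave 12 lower members in place of 0, and 15 lower transcripts in place of 10. The shares of all genes and transcripts called under this weighting were not computed. Leaving out 1 mouse at a time gave 0 to 2 higher members, 0 to 15 lower members (15 without PN98 mouse m35, 0 without any other), medians of −0.82 to −0.52, 3 to 5 higher transcripts and 3 to 18 lower transcripts (18 without m35, 8 without m1, 6 without m49, 5 without m138 or m114, 4 without m145 or m106, 3 without m125). The *Cxcl9* to *Cxcl10* log2 ratio differed by 1.78 to 2.06 when 1 mouse was left out and by 2.28 with the coding transcript Cxcl10-201 alone, both chosen after seeing the data. *Cxcr7* changed sign, from −0.13 to 0.077 under median of ratios scaling or 0.11 when scaled to nuclear genes, and lay between −0.29 and 0.037 when 1 mouse was left out, with the highest value without m125. The cause of these changes was not tested. Of 240 values of 16 named members under 15 alternatives, 213 kept their direction and side of the threshold, 12 lost the call, 12 gained it and 3 changed sign. No paired analysis was possible because the replicate numbers only name the mice. Depth is unknown, so genes near 0 FPKM cannot be told from absent ones.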
